A study of Mus musculus with 6 samples.

Results

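The nuclear genes that copy and transcribe mitochondrial DNA (mtDNA) were examined in mouse neural stem cells (NSCs). They were chosen by name as the rows of the deposited table for Polg, Polg2, Twnk, Ssbp1, Tfam, Tfb2m, Polrmt, Tfb1m, Mgme1 and Top1mt, which are 10 of the 53110 genes listed. The cells were primary cultures from the embryonic cortex, grown as adherent cells in medium with EGF and bFGF at 21% oxygen. One group was wild type (WT). The other carried a heterozygous CRISPR-Cas9 mutation of Setd5 (Setd5+/-), and its columns name a single clone, A3. RNA-seq libraries were made from total RNA with a TruSeq RNA v2 kit and read from both ends. The labels list 3 samples of each genotype, but the columns of a genotype carry the same index and lane in their names. The variance of the reads between them was 1.95 times the mean, near the 2 that counting both ends of a pair as reads would give. With reads halved for this, samples of a genotype differed no more than sampling from one library would give, with a chi-square per degree of freedom of 0.958 to 0.981 over the 6 such pairs and of 31.7 to 31.9 over the 9 pairs between genotypes. With reads not halved, the pairs of a genotype were at 1.916 to 1.962. The 3 samples were therefore counted as 1 library, n = 1 for each genotype, so that no difference below has a replicate check. The index and lane in the column names differ between the genotypes. Genotype, clone, library and lane cannot be told apart, nor can fewer cells of a type and less RNA per cell.

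Mitochondria hold their own small circular genome, which is copied by a dedicated machinery encoded in the nucleus. DNA polymerase gamma, made of the catalytic subunit Polg and the accessory subunit Polg2, extends the new strand behind the helicase Twinkle (Twnk), while the single-strand binding protein Ssbp1 covers the opened strand. Transcription starts when Tfam, which also packs mtDNA, bends the promoter and the RNA polymerase Polrmt joins it with Tfb2m, and transcripts of this polymerase also prime replication. In neural stem cells and other dividing cells, mtDNA must be copied to keep its number as the cells divide.

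The values are normalized counts, meaning reads counted on a gene divided by a size factor of the sample. Reads on genes came to 30004634 in WT and 21435546 in Setd5+/-. Setd5 itself was read in WT at 2498, 2749 and 2780.1 normalized counts and in Setd5+/- at 2151, 1989.9 and 2055, so that the mutant library held 77.2% of the WT level. Of 10 neural stem cell markers, 10 were detected above the filter used below, and Nes and Sox2, which mark neural progenitors, were at 2378 and 3119 in WT and at 1951 and 2732 in Setd5+/-. The list had members that differed in both directions, with Fabp7 at 36015 and 11489.8, Hes1 at 476 and 224, and Vim at 9095 and 13822. Markers of other cells moved between the libraries. The 5 astrocyte markers summed to 6442 to 6603 in WT and 8669 to 8741 in Setd5+/-, most of it Aldoc, while Gfap was at 17.1 and 263 and Aldh1l1 at 380.4 and 147. Summed levels in the same order were, for the 8 oligodendrocyte lineage markers, 40997 to 41788 and 23688 to 24533, most of it Olig1 and Olig2, with Sox10 at 298 and 1.59 and Cspg4 at 769 and 1448. For the 7 neuronal markers they were 10333 to 10719.5 and 12642.6 to 12755, nearly all of it Map2, while Dcx was at 248 and 26.2, Snap25 at 19.1 and 5.56, and Rbfox3 at 7.46 and 0. Of the microglial markers Cx3cr1, C1qa and Ptprc were at 0 in both libraries, as were the mesenchymal marker Lum and the neuronal marker Neurod1. Summed levels for the 5 microglial markers were 78.6 to 117 and 48.9 to 70.3, most of it Csf1r (98.0 and 53.6). For the 6 mesenchymal markers they were 235 to 283 and 1299 to 1364, of which Thy1 gave nearly all. The 4 endothelial markers summed to 9.11 to 14.9 and 13.1 to 26.2. The 10 proliferation genes summed to 8699 to 8825 and 9087 to 9183, although 7 were lower and 3 higher. The higher ones were Mki67 (1821 and 2327), Top2a (1848 and 2653) and Ccnb1 (218 and 326). Pcna and Mcm5 were lower by at least 1.5-fold. The part of these markers in the results below was not tested.

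Promoter sequences are shown for Polg, Ssbp1 and Tfam, the 3 members with the largest differences below WT, and for Polrmt, which was higher. They were chosen because all 4 carry the same short motif near the RefSeq start. The windows are the 250 bases before the RefSeq start site (GRCm38.p6, the mm10 assembly), 5′ to 3′ on the strand of the gene. Capitals mark CCGGAAG, the core recognised by ETS factors such as GABP, or its reverse complement, and in Polrmt also the reverse complement of a core of the factor NRF1, described after the sequences. They lie at chr7:79466274-79466523 on the minus strand for Polg, chr6:40471218-40471467 on the plus strand for Ssbp1, chr10:71238045-71238294 on the minus strand for Tfam and chr10:79746582-79746831 on the minus strand for Polrmt.
Polg: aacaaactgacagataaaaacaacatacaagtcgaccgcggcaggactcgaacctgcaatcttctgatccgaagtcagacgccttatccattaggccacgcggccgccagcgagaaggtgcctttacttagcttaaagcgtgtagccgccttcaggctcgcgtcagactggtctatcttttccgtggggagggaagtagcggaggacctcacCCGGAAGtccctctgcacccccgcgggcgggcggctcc
Ssbp1: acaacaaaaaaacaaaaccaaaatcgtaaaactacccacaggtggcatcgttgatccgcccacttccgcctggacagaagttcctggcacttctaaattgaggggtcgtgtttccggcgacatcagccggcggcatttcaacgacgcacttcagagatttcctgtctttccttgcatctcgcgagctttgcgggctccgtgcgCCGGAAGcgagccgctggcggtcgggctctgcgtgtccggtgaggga
Tfam: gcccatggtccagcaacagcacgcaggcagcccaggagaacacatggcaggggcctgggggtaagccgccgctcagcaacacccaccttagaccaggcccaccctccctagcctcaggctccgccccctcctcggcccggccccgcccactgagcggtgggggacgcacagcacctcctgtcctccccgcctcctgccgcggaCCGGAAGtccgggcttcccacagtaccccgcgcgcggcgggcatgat
Polrmt: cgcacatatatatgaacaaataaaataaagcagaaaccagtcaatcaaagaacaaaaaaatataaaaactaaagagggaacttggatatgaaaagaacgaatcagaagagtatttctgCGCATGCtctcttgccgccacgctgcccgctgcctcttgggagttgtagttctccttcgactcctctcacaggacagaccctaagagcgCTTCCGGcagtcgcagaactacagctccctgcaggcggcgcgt

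From the RefSeq start site, the motif began 38 bases upstream in Polg, 47 in Ssbp1, 47 in Tfam and 43 in Polrmt. In Polrmt it stood in the reverse direction. The gene positions given below are from GENCODE, where Polg, Ssbp1 and Tfam begin further upstream, at 79466362, 40471352 and 71238280. By that annotation their motifs lie inside the genes, as does most of the Tfam window, whereas the Polrmt window lies outside its gene. The distances therefore hold for the RefSeq starts only. Windows were found for 9 members, Top1mt being the exception, and 6 of the 9 held it on either strand, the others being Polg2, 29 bases before its start, and the second window of Twnk. It was absent from the windows of Mgme1, Tfb1m and Tfb2m. Of 32851 windows of the same length in the mouse genome, 6.91% held it. A core recognised by the factor NRF1, GCATGCG, which shares no overlapping hit with it in these windows, was found on either strand in 1 of the 9 members, Polrmt, 132 bases before its start, and in 3.02% of all windows. Both searches were chosen after the sequences were seen, and a match is a description of letters only. Members with the ETS core were found both below and above the WT level.

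Across the 10 genes the Setd5+/- library showed lower Polg, Ssbp1, Tfam, Mgme1 and Twnk, higher Polrmt, and no difference beyond counting error in Polg2 and Tfb1m. Top1mt and Tfb2m had counting intervals above 0, but their samples overlapped between genotypes. All 10 genes passed the filter, which required a mean normalized count of 10 or more. The log2 fold changes, computed on mean normalized counts plus 1 as Setd5+/- over WT, ranged from -1.04 to 0.63 with a median of -0.14, beside a median of -0.02 over all 16266 genes tested. At the call rule of at least 1.5-fold, 2 of the 10 were lower, Polg and Ssbp1, where 15.5% of all tested genes were lower by as much. Top1mt was the 1 member higher by at least 1.5-fold, where 19.7% of all tested genes were. These counts are thus near the shares of all genes. The values of the 6 samples did not overlap between genotypes for 5 members that were lower (32.9% of all tested genes) and 1 that was higher (32.4% of all tested genes).

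**Figure D1:**
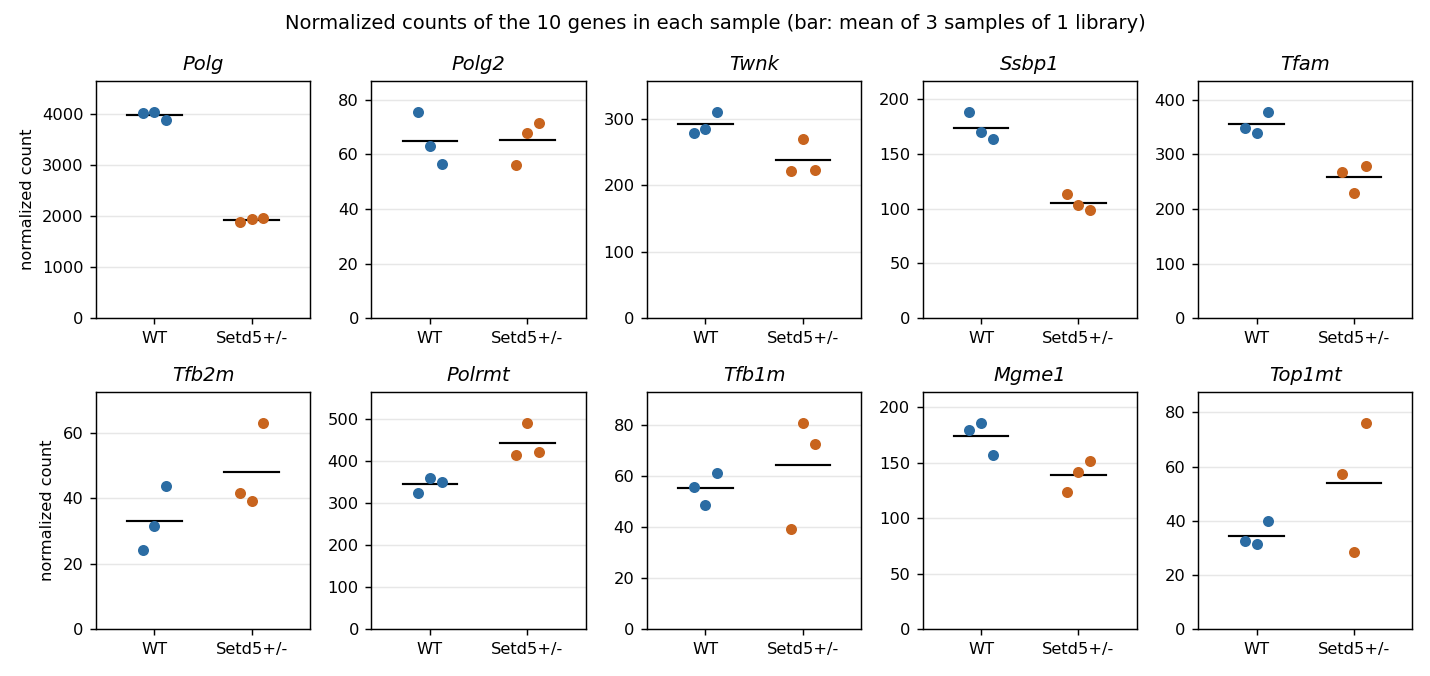
Normalized count (vertical axes, each from 0) of the 10 genes in the 3 WT and the 3 Setd5+/- samples, with bars for the mean of the samples, which are parts of 1 library a genotype. Points of Polg lie at 3882 and above in WT and at 1955 and below in Setd5+/-, whereas the points of Polg2, Tfb2m, Tfb1m and Top1mt overlap.

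**Figure D2:**
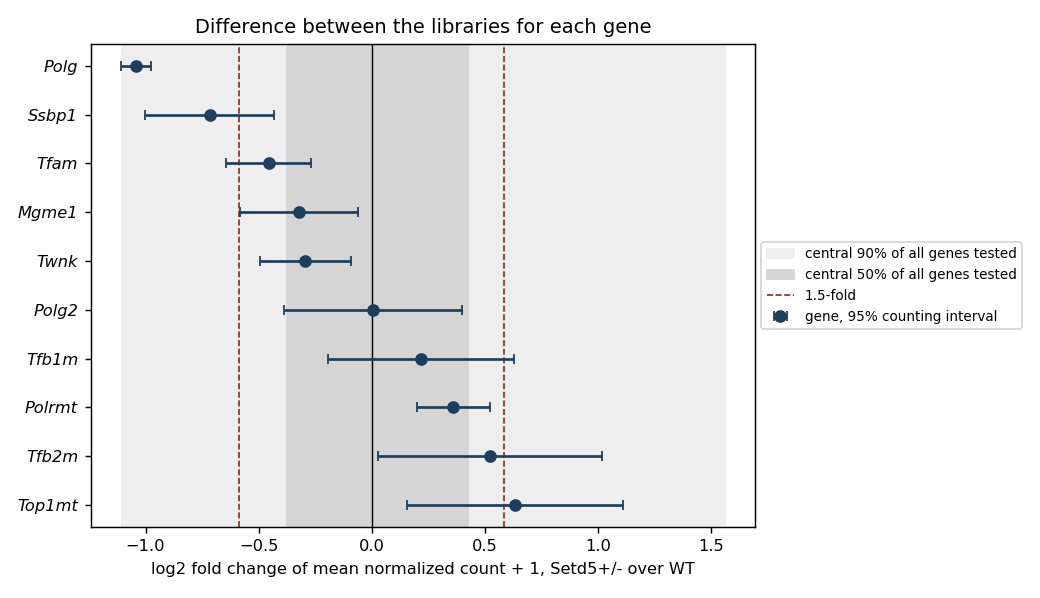
Log2 fold change of each gene (horizontal axis, Setd5+/- over WT) with its 95% counting interval, over bands holding the central 50% and 90% of the 16266 genes tested. Polg, at -1.04, lies near the lower edge of the wide band, whose ends are -1.10 and 1.56.

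The genes of DNA polymerase gamma differed. Polg (ENSMUSG00000039176, chr7:79446231-79466362, mm10) encodes the catalytic subunit, which adds nucleotides and proofreads. In WT it had 4019, 4039.7 and 3882 normalized counts, and in Setd5+/- 1890.3, 1948 and 1955. Every Setd5+/- value was under every WT value, and the mutant library held 48.5% of the WT level, with a 95% counting interval of the log2 fold change from -1.11 to -0.98. A lower log2 fold change was found in 5.57% of all tested genes. Polg2 (ENSMUSG00000020718, chr11:106768253-106779537), the accessory subunit that holds the enzyme on its template, had 75.5, 62.9 and 56.3 in WT and 56.0, 67.9 and 71.5 in Setd5+/-. Its groups overlapped, and the log2 fold change of 0.01 had an interval from -0.39 to 0.40, so that a difference inside these bounds was not detectable at this depth. Per kb of transcript, the level of Polg was 11.8 times that of Polg2 in WT and 5.70 times in Setd5+/-, and the log2 of the ratio of these ratios was -1.05, with a counting interval from -1.46 to -0.64. Per kb of all annotated exons of a gene the ratios were 24.9 and 12.02, so the ratio within a library depends on the length used, whereas the difference between libraries does not.

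Part of the Polg transcript lies opposite to exons of Fanci, a gene of DNA crosslink repair, which shares 8.57% of the exon length of Polg. Fanci had 876.5, 912 and 884 normalized counts in WT and 586, 588 and 639 in Setd5+/-, a log2 fold change of -0.56 with an interval from -0.68 to -0.44. The sources used here describe neither the libraries nor the counting as stranded, so reads of overlapping genes on opposite strands cannot be told apart. The part of such reads in the Polg values was not tested.

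The replication fork genes Twnk and Ssbp1 were both lower in the Setd5+/- library. Twnk (ENSMUSG00000025209, chr19:45005663-45012762), the helicase that opens the mtDNA duplex, had 279, 285 and 311 normalized counts in WT and 222, 269 and 223 in Setd5+/-. The groups did not overlap, although one Setd5+/- sample came close to the lowest WT sample, and the log2 fold change was -0.29 with an interval from -0.49 to -0.09. Twnk overlaps Mrpl43, a gene of the mitochondrial ribosome, on the opposite strand over 12.6% of its exon length. Mrpl43 was lower as well, with means of 333 and 259.7.

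Ssbp1 (ENSMUSG00000029911, chr6:40471352-40484700), which binds the displaced single strand, had 188, 169.6 and 163 normalized counts in WT and 113, 104 and 98.9 in Setd5+/-. All values of the mutant library were lower, at 60.6% of the WT mean, and the log2 fold change was -0.72 with an interval from -1.004 to -0.43. A processed pseudogene on chromosome 11, Gm12115, matches the Ssbp1 transcript at 97.8% over 447 bases. Gm12115 had more counts than Ssbp1 itself, with means of 238 in WT and 184 in Setd5+/- and a log2 fold change of -0.37. The aligner named by the study, Bowtie2, does not split reads over introns. With the counts of both genes added, the log2 fold change was -0.51 (interval from -0.69 to -0.33), which is below 1.5-fold, so that the call for Ssbp1 depends on how reads of the copy are counted.

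The 3 genes that start mitochondrial transcription did not move together. Tfam (ENSMUSG00000003923, chr10:71225464-71238280), which bends and coats mtDNA, had 347, 340.0 and 378 normalized counts in WT and 268, 229 and 279 in Setd5+/-. The groups did not overlap, and the mutant mean was 72.8% of WT, with a log2 fold change of -0.46 and an interval from -0.65 to -0.27. Polrmt (ENSMUSG00000020329, chr10:79736123-79746581), the single-subunit RNA polymerase of the organelle, had 323, 359.9 and 350.3 in WT and 414, 492 and 422 in Setd5+/-. Here every mutant value was above every WT value, with a mean of 128% of WT, a log2 fold change of 0.36 and an interval from 0.20 to 0.52. Both genes lie on chromosome 10, where the median over 810 tested genes was 0.00. Per kb of transcript, the level of Tfam was 0.929 times that of Polrmt in WT and 0.527 times in Setd5+/-, a log2 difference of -0.82 with an interval from -1.07 to -0.57. With the length of all annotated exons the ratios were 1.09 and 0.617, so which gene was the higher in WT depends on the length used.

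Tfb2m (ENSMUSG00000026492, chr1:179528055-179546267), the initiation factor that helps Polrmt open the promoter, had 24.0, 31.4 and 43.9 normalized counts in WT and 41.7, 39.3 and 63.1 in Setd5+/-. The highest WT sample lay above 2 of the mutant samples. The log2 fold change of 0.52 had an interval from 0.03 to 1.02, and it was 0.28 without Setd5+/- replicate 3, 0.34 without WT replicate 1 and 0.77 without WT replicate 3. The gene is on chromosome 1, where 1044 genes were tested and their median log2 fold change was 0.53, against medians from -0.15 to 0.02 on the other chromosomes. Relative to the median of its chromosome, Tfb2m differed by -0.01, with an interval from -0.50 to 0.49. What set the chromosome 1 values apart, and its part in the value of Tfb2m, was not tested. The unprocessed pseudogene Gm1818 on chromosome 12 matches Tfb2m at 99.3% over 1187 bases and had means of 71.8 and 89.3. With its counts added, the log2 fold change was 0.39, with an interval from 0.10 to 0.68.

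**Figure D3:**
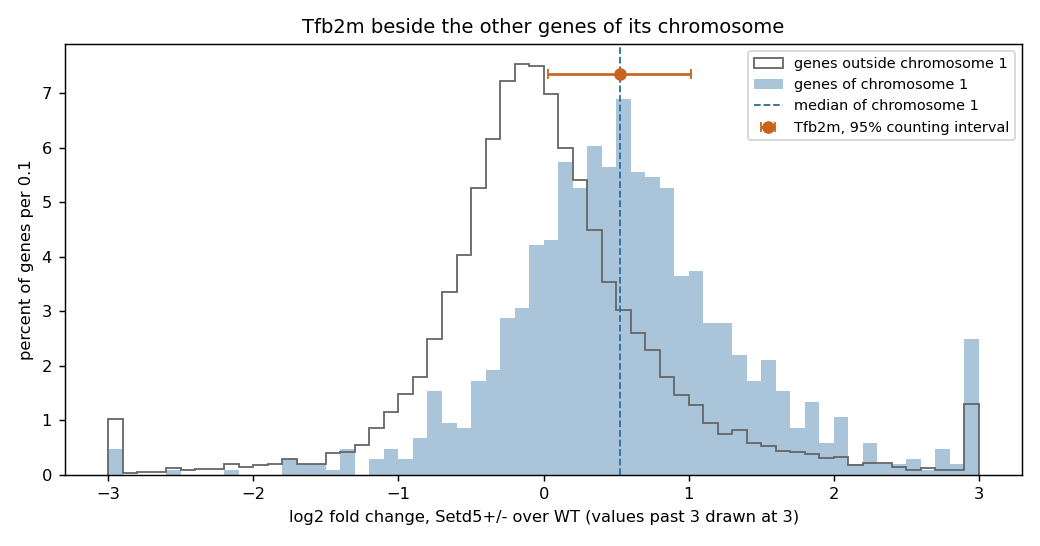
Distribution of log2 fold changes (horizontal axis, Setd5+/- over WT) as percent of genes in steps of 0.1, for the 1044 tested genes of chromosome 1 and for the genes of the other chromosomes. The point for Tfb2m, at 0.52 with its 95% counting interval, lies on the median of chromosome 1, 0.53.

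Tfb1m, the relative of Tfb2m that methylates the 12S rRNA of the mitochondrial ribosome, did not differ beyond counting error. This gene (ENSMUSG00000036983, chr17:3519256-3557781) had 55.6, 48.8 and 61.3 normalized counts in WT and 39.3, 81.0 and 72.7 in Setd5+/-. The mutant samples held both the lowest and the highest value, and the log2 fold change was 0.22 with an interval from -0.19 to 0.63.

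Of the remaining members, which act on mtDNA ends and supercoils, one was lower and one higher. Mgme1 (ENSMUSG00000027424, chr2:144270663-144281227), an exonuclease that trims single-stranded ends during replication, had 179, 186 and 157 normalized counts in WT and 124, 142 and 151 in Setd5+/-. The groups did not overlap, though the nearest samples were close, and the log2 fold change was -0.32 with an interval from -0.58 to -0.06. Top1mt (ENSMUSG00000000934, chr15:75657035-75678800), the mitochondrial type IB topoisomerase, had 32.3, 31.4 and 39.8 in WT and 57.2, 28.6 and 76.2 in Setd5+/-. One mutant sample was below all WT samples and the others above them. Its log2 fold change of 0.63, with an interval from 0.15 to 1.11, fell to 0.31 without Setd5+/- replicate 3, and rose to 0.93 without Setd5+/- replicate 2, so the position of Top1mt past 1.5-fold rests on single samples.

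Smaller overlaps on the opposite strand were found for Mgme1 with Snx5 (6.15% of the exon length of Mgme1), Top1mt with Gm15945 (4.65%), Tfb1m with Tiam2 (3.93%) and Polg2 with Milr1 (3.03%). Of these partners, Snx5 was the most abundant, with means of 1624 in WT and 1386 in Setd5+/-.

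Levels were compared between genes per kb of 1 representative transcript. This transcript has 5 exons in Twnk and 21 in Polrmt, and Bowtie2 does not split reads over introns. The part of reads lost at exon junctions in the order below was not tested. Polg was the highest by far, at 508 normalized counts per kb in WT, followed by Polrmt at 91.8, Tfam at 85.2 and Twnk at 83.7, which did not differ beyond counting error from one neighbour to the next. Mgme1 was at 61.2, then Polg2 at 43.1, Ssbp1 at 39.5 and Tfb1m at 39.4, again without differences between neighbours among the last 3. Top1mt at 18.1 and Tfb2m at 13.5 were the lowest and did not differ beyond counting error. In the Setd5+/- library Polg was still first at 246 per kb and Polrmt second at 118. The lowest were Top1mt at 28.4, Ssbp1 at 23.9 and Tfb2m at 19.6, which did not differ beyond counting error from one neighbour to the next. Polg alone gave 72.3% of the summed normalized counts of the 10 genes in WT and 57.7% in Setd5+/-. The transcript used for Ssbp1 is a long isoform of 4398 bases, so that its level per kb is uncertain. Per kb of all annotated exons Polg was again the highest, at 371 in WT and 179.8 in Setd5+/-, but Tfam (80.0 in WT) stood above Polrmt (73.5) and Polg2 (14.9) below Top1mt (16.9), so the order of the others depends on the length used.

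**Figure D4:**
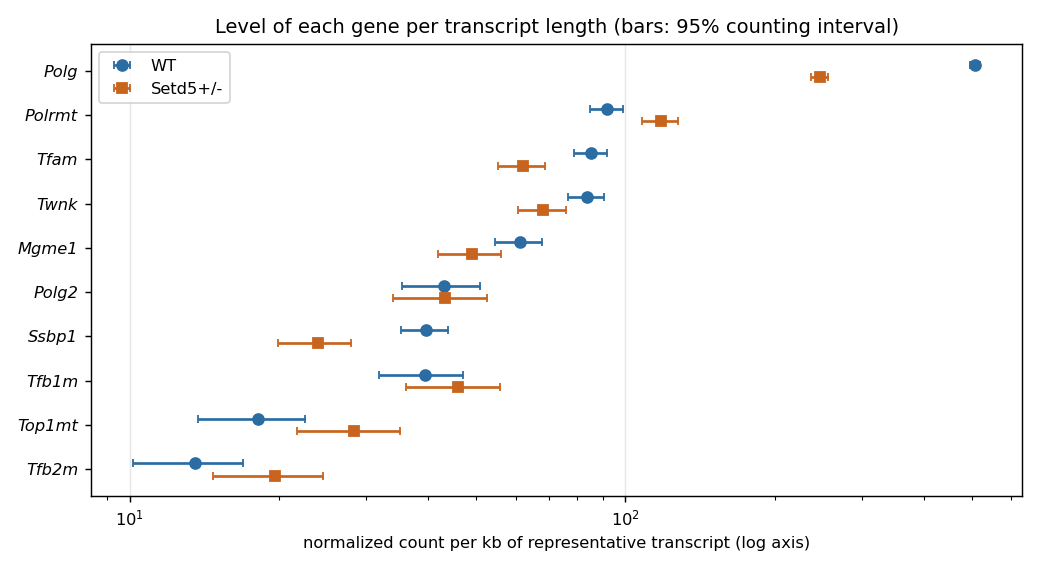
Level of each gene as normalized counts per kb of its representative transcript (horizontal log axis) in the WT and the Setd5+/- library, with 95% counting intervals. Polg stands apart at 508 and 246 per kb, and the other genes lie between 13.5 and 118 per kb.

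A limma fit over all 16266 genes called 6 of the 10 members at a Benjamini-Hochberg adjusted p under 0.05, 5 of them lower (30.9% of all tested genes) and 1 higher (30.3% of all tested genes). This test takes the samples as replicates, so it compares the reads of these libraries, not the genotypes. The limma adjusted p was 2.1e-21 for Polg, 3.6e-05 for Ssbp1, 0.00013 for Tfam, 0.00057 for Polrmt, 0.012 for Twnk and 0.031 for Mgme1. Twnk and Mgme1 were lost under some alternatives, with limma adjusted p from 0.0022 to 0.070 for Twnk and from 0.016 to 0.13 for Mgme1. Without WT replicate 3, Twnk was at 0.070 and without Setd5+/- replicate 1 at 0.053. Mgme1 was at 0.096 without WT replicate 1, at 0.13 without WT replicate 2 and at 0.12 without Setd5+/- replicate 1, and also at 0.060 with scaling to genes outside chromosome 1 and at 0.056 with no filter. Top1mt passed only without Setd5+/- replicate 2 (limma adjusted p = 0.0026, from 0.10 with all samples) and Tfb2m only without WT replicate 3 (0.034, from 0.085), among the 13 alternatives run for each.

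Other nuclear genes that act on mtDNA or its transcripts are given by lists chosen by function. Among 12 further replication and repair genes, all tested, the median log2 fold change was -0.40, with 5 lower and 1 higher by at least 1.5-fold. Over all tested genes 15.5% were lower and 19.7% higher by as much, and the counts of each list below stand beside the same shares. The largest differences below WT were in Ung, a uracil-DNA glycosylase (mean 102 in WT and 25.8 in Setd5+/-), Dna2, a nuclease and helicase (199 and 89.4), and Apex1, an abasic site endonuclease (599.6 and 318). Primpol, which can restart stalled forks, was the one higher, at 91.7 and 198.5. Among 16 genes of nucleotide supply and mtDNA maintenance the median was -0.32, with 4 lower and 1 higher (15.5% and 19.7% of all tested genes). Rrm2 and Rrm1, subunits of ribonucleotide reductase, had 683 and 277, and 1477 and 819, and Slc25a4, the adenine nucleotide carrier, had 6843 and 3756. The pyrimidine nucleotide carrier Slc25a33 was higher, at 125 and 208.

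The 11 nucleoid proteins had a median of -0.09, with 2 lower and 4 higher by at least 1.5-fold (15.5% and 19.7% of all tested genes). Phb, a prohibitin (194 and 80.2), and Atad3a, an inner membrane ATPase (502.5 and 238), were lower. Shmt2, a serine hydroxymethyltransferase (681 and 2491), Lonp1, the matrix protease that degrades Tfam (1004 and 2095), and Hspa9, the matrix chaperone (1616 and 2687), were higher. Of the 7 elongation and termination genes 1 was lower, Mrpl12 (401 and 212), and 3 higher (15.5% and 19.7% of all tested genes), and their median was 0.41. The higher ones were Mterf4 (266 and 563), on chromosome 1, and the near-identical copies Mterf1a (13.0 and 23.0) and Mterf1b (8.01 and 14.3), between which reads can be split. The counting interval of the log2 fold change ran from -0.13 to 1.66 for Mterf1b and from 0.05 to 1.51 for Mterf1a, and limma called neither (adjusted p of 0.12 and 0.15). Tefm, the elongation factor that binds Polrmt, had 72.9 and 71.1.

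Of 28 genes of transcript processing, modification and decay 5 were lower and 1 higher by at least 1.5-fold, near the 15.5% of all tested genes for the lower ones and under the 19.7% for the higher, with a median of -0.25. The lower ones with the largest differences were Mrm3, an rRNA methyltransferase (103 and 45.7), Pus1, a pseudouridine synthase (266 and 132), and Tbrg4, a FASTK family RNA-binding protein (609 and 364). Nsun4, an rRNA methyltransferase that works with Mterf4, was higher (172 and 259). Lrpprc, the mRNA stability factor, was not past 1.5-fold, with 750.4 and 709.6. Over the 5 nuclear lists, every listed gene passed the filter. Pseudogene copies of these genes were not searched for.

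Transcripts of the mitochondrial genome itself, the product of this machinery, differed in both directions. The 13 protein-coding genes summed to 3.64% of all normalized counts in WT and 3.85% in Setd5+/-, and the sum of normalized counts was 1.09 times the WT value. Of the 13 genes 6 had means under 100 while 7 were over 1000, so the sum rests on those 7. The 6 ran from mt-Nd3 at 0.55 and 0.79 to mt-Atp8 at 36.4 and 37.7. Near-identical copies of mitochondrial genes were not searched for. The part of reads lost to such copies in these low values and in the sum was not tested. Among the 7, mt-Co1 (115272 and 126633) and mt-Cytb (75121 and 92781) were higher, and the other 5 together were at 110722 and 108147, with mt-Nd5 at 33155 and 28879. The 2 rRNA genes summed to 0.123% and 0.0258%, a level 4.63-fold lower in Setd5+/-, with mt-Rnr1 at 3497 and 824 and mt-Rnr2 at 6687 and 1373. The sources used here do not describe how the library kit treated rRNA. These rRNA counts therefore cannot be read as amounts of rRNA in the cells. With 1 library of each genotype, a difference in library preparation cannot be told apart from one in the cells. Over the 13 mitochondrial genes that passed the filter, rRNA genes included, the median log2 fold change was 0.05. This median is the value of mt-Atp8, whose counting interval ran from -0.47 to 0.57. The 13 include mt-Co2, mt-Co3, mt-Atp6 and mt-Atp8, all with means under 100, so the median says little about the abundant transcripts. The 2 rRNA genes were the ones past 1.5-fold.

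**Figure D5:**
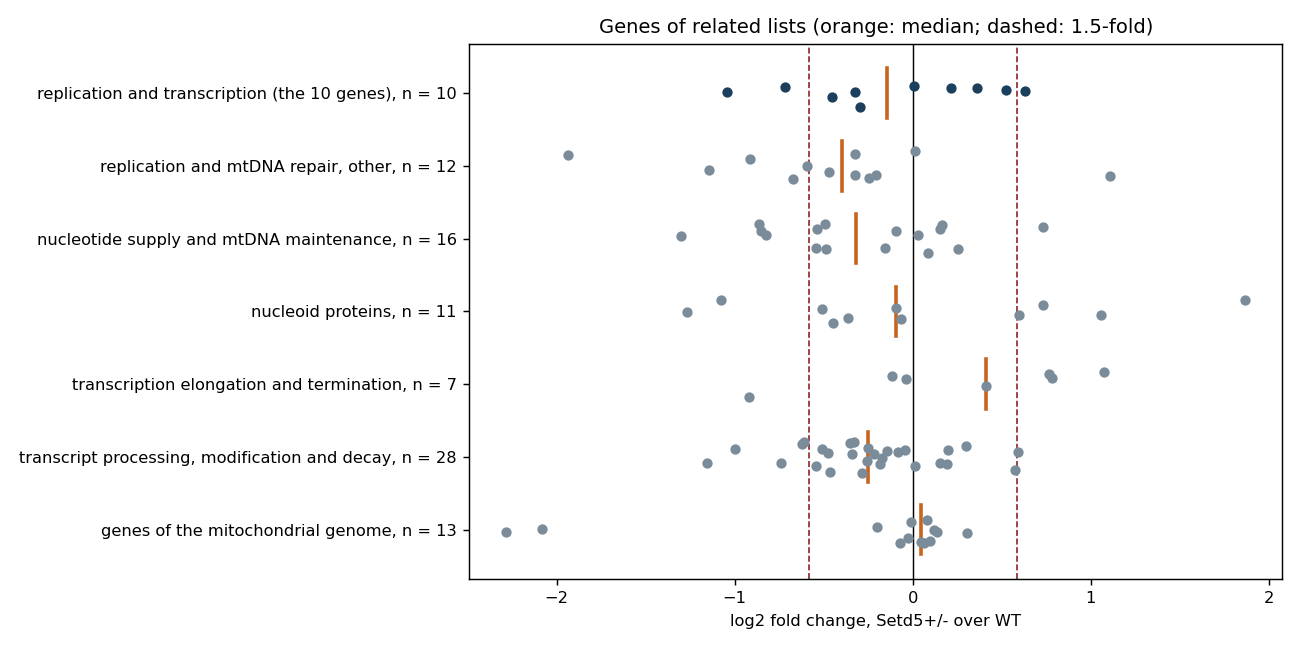
Log2 fold change (horizontal axis, Setd5+/- over WT) of each tested gene, 1 point a gene, in the 10 genes of replication and transcription and in the related lists, with the median of each list as an orange line and 1.5-fold as dashed lines. List medians lie between -0.40 and 0.41, and the 2 points below -2 are the mitochondrial rRNA genes.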

How the data were processed

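RNA-seq was analysed from 3 WT and 3 Setd5+/- samples of NSCs at 21% oxygen. Per the submitters' processing notes and the study's methods, reads were trimmed with Trimmomatic, aligned with Bowtie2 to mm10 and compared with DESeq2. The program that counted reads is not given in the sources used here. The values deposited by the authors are normalized counts, that is reads per gene divided by the size factor of the sample, in 6 columns with a mean column. Columns of the authors' own comparison (fold changes and p-values) were not used. Many values had lost or moved their decimal points, and these were restored from the value of 1 read in each sample (0.827 to 0.829 in WT, 1.19 in Setd5+/-). For 18488 genes the deposited mean was needed for this, and for 87 genes, none of them a member, more than 1 placement was possible. These steps were tested on simulated data.

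Samples of a genotype were compared by chi-square of recovered reads, halved because both ends of a pair appear to be counted, and counted as 1 library. Log2 fold changes are Setd5+/- over WT of mean normalized counts plus a pseudocount of 1, for 16266 genes with a mean of at least 10. Intervals are 95% normal intervals for counting error only, with a variance of 1.95 times the number of reads, as seen between samples of a genotype, so that deeper genes have narrower intervals. The threshold was 1.5-fold. limma 3.58.1 in R 4.3.3 was fitted (lmFit, eBayes with trend, Benjamini-Hochberg). On simulated data the fit recovered 145 of 195 changed genes that were tested, with 3 false calls. Of those recovered, 82 had been changed 2-fold and 63 had been changed 1.5-fold. The simulated samples varied by counting noise only. The number of false calls therefore says nothing about differences between cultures, clones or libraries. Gene positions, overlaps and lengths came from GENCODE M21, and near-identical copies from BLAST at 97% identity over at least 200 bases. Alternatives were the pseudocount, scaling, filter, fold, sample left out, block and weights.

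Genes named are the 10 members, Setd5, and in each related list up to 3 genes lowest and up to 3 highest among those past 1.5-fold. Other genes were chosen after their values were seen. Members, lists and tests were chosen with earlier results of these data known. Low-oxygen samples were not analysed here.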

Additional observations from a re-analysis of the deposited data

How the results depend on the processing

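Polg, Ssbp1, Tfam, Mgme1 and Twnk stayed lower and Polrmt, Tfb2m and Top1mt stayed higher under each pseudocount, scaling and left-out sample run, with log2 fold changes from -1.08 to -1.001 for Polg, -0.77 to -0.66 for Ssbp1, -0.51 to -0.38 for Tfam and 0.28 to 0.41 for Polrmt. Polg2 took values from -0.09 to 0.13 and Tfb1m from 0.02 to 0.47, and the limma estimate of Tfb1m was -0.04 without Setd5+/- replicate 2. The median of the members was -0.31 with a filter at a mean of 50, which removed Tfb2m and Top1mt, and lay between -0.18 and -0.072 with single samples left out. Members higher by at least 1.5-fold numbered 0 with that filter, 3 at the lower fold threshold and 0 at a fold of 2, and 0 to 2 with single samples left out. Members lower numbered 1 at a fold of 2. Genes lower and higher over the whole table numbered 6066 and 6406 with no filter, 4616 and 4828 at the lower fold threshold, and 998 and 1668 at a fold of 2, against 2521 and 3201. Of the genes past the limma threshold, 9963 in all, 5352 were also past 1.5-fold, and 2 of the 6 members. Another scaling moved the median of all genes by at most 0.04. Replicate numbers are shared between the genotypes in the labels, but deviations of same-numbered samples correlated at -0.0071 to 0.0049, so the numbers do not pair the samples, and with the replicate block limma called 9946 genes and 6 members. Adding the counts of the pseudogenes, an alternative chosen after seeing the data, gave -0.51 for Ssbp1 and 0.39 for Tfb2m. Depth limits Tfb2m, Top1mt, Tfb1m and Polg2, which had the fewest reads.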
